A study of Mus musculus with 8 samples.

Results

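Steroid hormones are inactivated, and in part reactivated, in the liver by enzymes that oxidise or reduce single positions of the steroid ring. Transcript levels of 10 genes for such enzymes or their relatives were read from mouse liver microarrays. The genes were Hsd3b2, Hsd3b3, Hsd3b5 and Hsd3b7 of the hydroxysteroid dehydrogenase and isomerase family, Hsd17b2, Hsd17b6 and Hsd17b13 of the group named for action at carbon 17, and Hsd11b1, Srd5a1 and Akr1c6. They were chosen by name, with earlier results of these data known. Every probe whose RefSeq accession belongs to 1 of these symbols was taken. All 10 genes had at least 1 probe that passed the filter on dim probes, 12 probes in all, among 26556 genes and unnamed transcripts tested.

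The study asks how Bcl6, a zinc-finger repressor of transcription, bears on the difference between male and female liver. Whole liver of mice aged 10 to 11 weeks was measured on 8 one-colour Agilent arrays in 4 groups of 2: males labelled as knockout for Bcl6 in the liver, wild-type males, females with the same knockout, and wild-type females. The strain, the Cre driver and the deleted exons are not given in the sources used here, and the replicate names do not state that each array came from a separate animal. All arrays shared 1 slide, females in its row 1 and males in its row 2, and an effect of the row cannot be told apart from one of sex.

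Steroid enzymes of the mouse liver are known to differ between the sexes under the control of growth hormone, whose pulses differ between males and females. Hsd3b5 is known as an enzyme of adult male liver, where it reduces ketosteroids and thereby inactivates androgens. Hsd3b2 and Hsd3b3 lie beside it in a cluster of closely related genes. Hsd11b1 works in the other direction, regenerating active glucocorticoid from its inactive keto form.

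Between 33677 and 36459 spots per array were well above background, no spot was saturated, and the log2 levels of replicate arrays correlated at 0.9867 to 0.9934. Levels below are log2 of the processed signal minus the 75th percentile of that array, so 0 is the signal of a probe at that percentile, and levels of different genes are not set against each other. The probe for Bcl6 read 4.49 and 4.01 in male and 1.62 and 4.41 in female arrays labelled knockout, against 3.97 and 2.91 in wild-type males and 2.95 and 0.86 in wild-type females. It was not lower in either sex (limma adjusted p = 0.677 in males and 0.556 in females), and its position relative to the deletion is not given here, so it checks no label; knockout below means arrays labelled so. Of 12 hepatocyte markers 11 were tested, and all 11 were well above background on all 8 arrays.

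The starts of Hsd3b5, Hsd3b3 and Hsd3b2 are shown because the probes of these 3 neighbours on mouse chromosome 3 all fell in knockout males. Each sequence is the 250 bases before the annotated start, 5′ to 3′ along the gene, from RefSeq's GRCm38.p6 annotation. Capitals mark the longest run of bases that the Hsd3b5 and Hsd3b3 windows have in common.
Hsd3b5, chr3:98645535-98645784, minus strand: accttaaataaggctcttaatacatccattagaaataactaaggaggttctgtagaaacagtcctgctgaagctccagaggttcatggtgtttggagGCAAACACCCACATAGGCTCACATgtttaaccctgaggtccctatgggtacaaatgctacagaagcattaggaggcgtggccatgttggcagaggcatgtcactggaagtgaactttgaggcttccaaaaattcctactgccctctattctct
Hsd3b3, first of its 2 starts, chr3:98762411-98762660, minus strand: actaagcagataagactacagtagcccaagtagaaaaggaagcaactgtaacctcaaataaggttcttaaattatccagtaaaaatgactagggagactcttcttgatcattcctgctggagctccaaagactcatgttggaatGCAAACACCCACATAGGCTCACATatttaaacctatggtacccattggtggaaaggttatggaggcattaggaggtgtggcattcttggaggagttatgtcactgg
Hsd3b2, chr3:98724544-98724793, minus strand: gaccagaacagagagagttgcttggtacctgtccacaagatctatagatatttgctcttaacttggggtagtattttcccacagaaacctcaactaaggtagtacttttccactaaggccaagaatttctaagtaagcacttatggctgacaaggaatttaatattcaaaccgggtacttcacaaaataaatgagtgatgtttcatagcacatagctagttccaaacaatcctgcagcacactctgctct
The shared run is 24 bases long. It lies 153 to 130 bases before the start of Hsd3b5 and 106 to 83 bases before that of Hsd3b3. Among 32851 promoter windows of the mouse annotation, 3 hold it: the window of Hsd3b5 and those of both Hsd3b3 starts. In 87 other pairs of windows from the enzymes described here and 3 of their relatives (Hsd3b1, Hsd3b6 and Hsd17b11), the longest run in common was 7 to 11 bases, with a median of 8. The Hsd3b2 window, printed without capitals, does not hold the run.

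The windows were also searched on both strands for 5 short motifs. TTCNNNGAA, the spaced palindrome that STAT5 proteins bind downstream of growth hormone, was found in 1 of 9 enzymes with a window and in 7.02% of all windows. The enzyme was Hsd3b7, whose window is shown for that reason with the match in capitals.
Hsd3b7, chr7:127800359-127800608, plus strand: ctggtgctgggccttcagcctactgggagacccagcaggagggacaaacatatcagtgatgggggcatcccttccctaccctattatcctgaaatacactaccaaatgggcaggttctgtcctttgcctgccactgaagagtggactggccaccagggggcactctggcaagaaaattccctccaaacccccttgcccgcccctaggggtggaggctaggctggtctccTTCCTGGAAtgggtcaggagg
ATTGAT, a form of the site of Cux and HNF6 proteins, and CAAAGTCCA, a form of the HNF4 site, matched in 0 of these 9 genes, against 6.72% and 0.384% of all windows. AGAACA, one arm of the glucocorticoid and androgen response element, matched in 1 gene, against 16.1% of windows, and TATAAA in 1, against 12.4%. Among the 3 relatives, Hsd3b1 holds 1 TTCNNNGAA match and Hsd3b6 holds 2 AGAACA matches. These matches are counts of letters in short windows and say nothing of binding.

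In males, 6 of the 10 enzymes differed between knockout and wild-type livers (limma, Benjamini-Hochberg adjusted p under 0.05), when 10.7% of all genes tested did. Hsd3b5, Hsd3b2, Hsd3b3 and Hsd17b13 fell and Hsd11b1 and Hsd17b6 rose. The arrays of the groups did not overlap for 10 of 10 enzymes, against 62% of all genes. The median difference over the 10 was -0.947 on the log2 scale, against -0.0359 over all genes. In females 1 of the 10, Hsd17b13, changed, when 5.93% of all genes did, and the median was 0.0542, against 0.00119 over all genes. The female arrays did not overlap between the groups for 7 of 10 enzymes, against 55.5% of all genes. Fewer cells of a type and less RNA per cell cannot be told apart in whole liver.

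**Figure D1:**
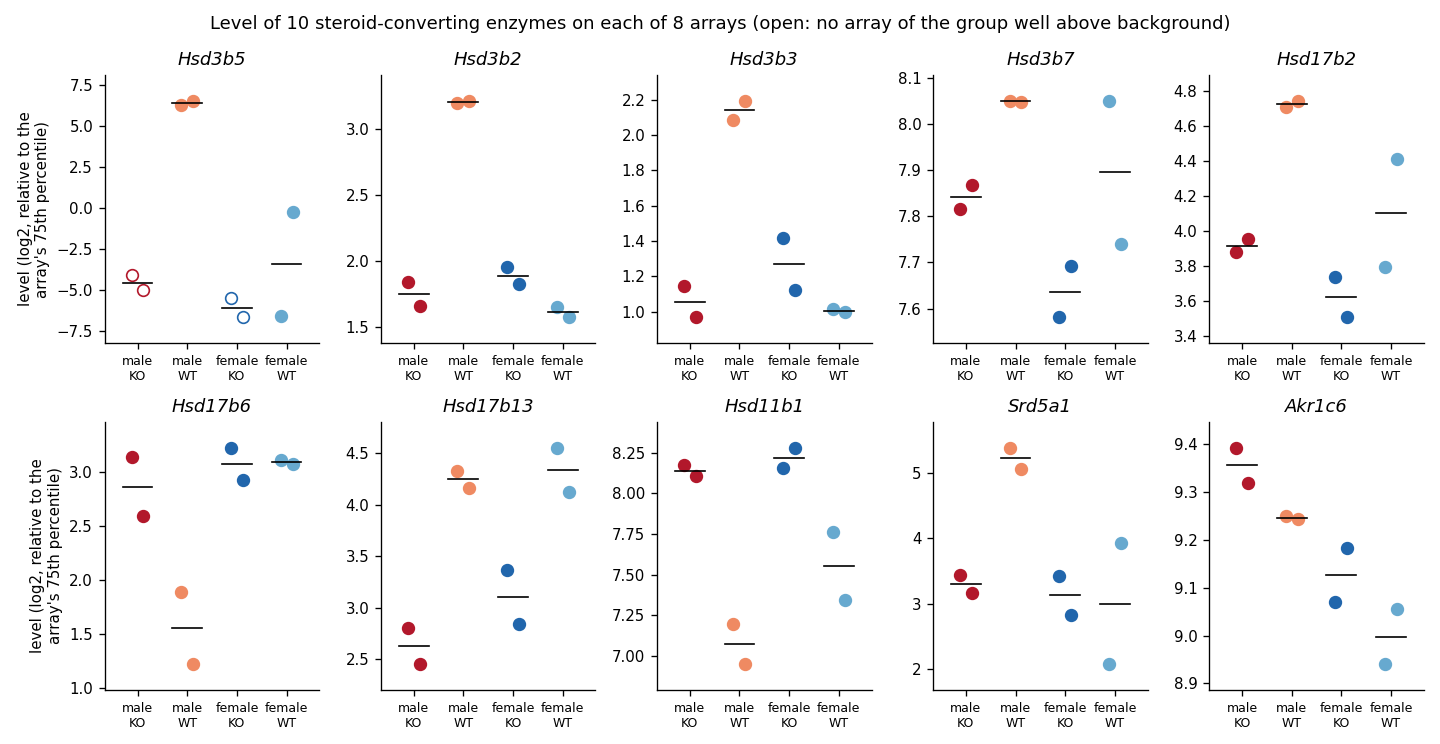
Level of each enzyme on each array, 1 panel a gene with its own y axis (log2, relative to the 75th percentile of the array). Points are arrays, short lines are means of 2 arrays, and open points mark groups in which no array read well above background. For Hsd3b2, Hsd3b3, Hsd3b5, Hsd17b2 and Srd5a1 the 2 wild-type male arrays lie above the other 6 arrays.

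Hsd3b5, the reductase of male liver, was high on the wild-type male arrays, at 6.32 and 6.55, and not well above background on either knockout male array. It fell at least 1581-fold in knockout males (limma adjusted p = 0.0198, or 0.0538 without the filter on dim probes). Its probe passed that filter through the wild-type male arrays alone, so the gene was admitted to the test by its own high group. Neither female knockout array read it well above background. Of the wild-type female arrays, 1 did so, at -0.20, and the other read -6.54. The 2 wild-type female arrays thus lay further apart for this gene than the groups of females did. The female groups overlapped, so no size is given, and their difference did not pass the test (limma adjusted p = 0.420). Without the array at -0.20 the sign of the difference was reversed, with no female array left above background. Without any 1 of the 4 male arrays the call in males was lost, with adjusted p between 0.0718 and 0.101.

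Hsd3b2 read 1.84 and 1.66 in knockout males, against 3.20 and 3.22 in wild-type males. Its product belongs to the family that oxidises and isomerises the A ring of steroids. In females it read 1.96 and 1.83 in knockout livers, against 1.65 and 1.58 in wild-type livers. The wild-type males stood apart, and the other 6 arrays lay between 1.58 and 1.96. Hsd3b2 fell by 1.46 ± 0.11 (SE) in males, or 2.75-fold (adjusted p = 0.00132), and held that call in all 18 alternatives tried. The female difference of 0.28 (95% interval 0.01 to 0.55) did not pass over all genes (adjusted p = 0.186). A second probe for Hsd3b2 read 2.04 and 1.85 in knockout males, against 3.22 and 2.96 in wild-type males, a fall of 1.14 (adjusted p = 0.00561).

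Hsd3b3, a further family member, read 1.14 and 0.97 in knockout males, against 2.09 and 2.19 in wild-type males. The female values were 1.42 and 1.13 in knockout livers, against 1.01 and 0.999 in wild-type livers. The wild-type males were again the high group, and the male groups did not overlap. The fall in males was 1.08 ± 0.13 (adjusted p = 0.00727), or 2.12-fold, and the female difference was 0.26 ± 0.13 (adjusted p = 0.281). Without replicate 2 of the knockout males the adjusted p in males was 0.0513. Across the 8 arrays the levels of Hsd3b2 and Hsd3b3 correlated at 0.989. The Hsd3b genes are close paralogs, no probe sequences were used here, and how far 1 probe reads another gene's transcript was not tested.

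Hsd3b7, which acts on sterol intermediates of bile acid synthesis and not on steroid hormones, read 7.82 and 7.87 in knockout males, against 8.05 and 8.05 in wild-type males. Female livers read 7.58 and 7.69 in knockout livers, against 8.05 and 7.74 in wild-type livers. Knockout arrays were the lower ones in both sexes, without overlap. The differences were -0.21 (95% interval -0.52 to 0.11) in males and -0.26 (-0.57 to 0.06) in females, and neither passed the test (adjusted p = 0.357 and 0.275).

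Hsd17b13, a protein of hepatocyte lipid droplets with retinol dehydrogenase activity in humans, was the 1 enzyme that changed in both sexes. It read 2.80 and 2.45 in knockout males, against 4.33 and 4.16 in wild-type males. In female livers the values were 3.36 and 2.84 in knockout livers, against 4.55 and 4.12 in wild-type livers. Both knockout groups lay below both wild-type groups with no overlap. It fell by 1.62 ± 0.24 in males (adjusted p = 0.0131) and by 1.24 ± 0.24 in females (adjusted p = 0.0417). The male call was lost without any 1 of 3 male arrays (adjusted p 0.0568 to 0.0762), the exception being replicate 1 of the knockout. The female call was lost without any 1 of the 8 arrays (0.0562 to 0.135). A second, dimmer probe for the gene fell by 1.08 in males (adjusted p = 0.0111) and by 1.15 in females (adjusted p = 0.0136).

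Hsd17b6, which oxidises androstanediol back to dihydrotestosterone and also handles retinol, was low in wild-type males. It read 3.14 and 2.59 in knockout males, against 1.88 and 1.22 in wild-type males. Among females it read 3.23 and 2.93 in knockout livers, against 3.11 and 3.07 in wild-type livers. Of the knockout male arrays 1 lay within and 1 below the range of the 4 female arrays, and both lay above the wild-type males. The rise in males was 1.32 ± 0.28, or 2.49-fold (adjusted p = 0.0359), and the female difference was -0.02 (95% interval -0.69 to 0.66). The male call was lost without any 1 of 7 arrays (adjusted p 0.0614 to 0.154), the exception being replicate 1 of the wild-type males.

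Hsd17b2, which inactivates estradiol and testosterone by oxidation, read 3.88 and 3.96 in knockout males, against 4.71 and 4.75 in wild-type males. In females it read 3.74 and 3.51 in knockout livers, against 3.80 and 4.41 in wild-type livers. The knockout arrays were lower in each sex, without overlap. The differences of -0.81 ± 0.21 in males (adjusted p = 0.0633) and -0.48 ± 0.21 in females (adjusted p = 0.220) did not pass the test. Without either wild-type female array, the male difference passed (adjusted p = 0.0202 without replicate 1 and 0.0204 without replicate 2), and without replicate 1 the female difference did too (0.0466).

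Hsd11b1, the glucocorticoid-regenerating reductase, read 8.17 and 8.11 in knockout males, against 7.20 and 6.95 in wild-type males. Female arrays read 8.16 and 8.28 in knockout livers, against 7.77 and 7.34 in wild-type livers. All 4 knockout arrays lay above all 4 wild-type arrays. The rise in males was 1.07 ± 0.17, or 2.10-fold (adjusted p = 0.0162), and was lost without either knockout male array or replicate 2 of the wild-type males (adjusted p 0.0792 to 0.0859). The female difference of 0.67 ± 0.17 did not pass (adjusted p = 0.0803, or 0.0454 without replicate 1 of the wild-type females), and the male and female differences were not shown to differ (difference 0.40, adjusted p = 0.724).

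Srd5a1, the reductase that turns testosterone into dihydrotestosterone and starts the clearance of several ketosteroids, read 3.44 and 3.16 in knockout males, against 5.39 and 5.06 in wild-type males. In females it read 3.42 and 2.83 in knockout livers, against 2.07 and 3.93 in wild-type livers. The male groups did not overlap, while the 2 wild-type female arrays enclosed the knockout ones. The male difference of -1.93 ± 0.58 did not pass the test (adjusted p = 0.0944). It passed without either wild-type female array (adjusted p = 0.0162 each time), since the spread between those 2 arrays enters the error shared by all groups.

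Akr1c6, a liver enzyme that interconverts ketosteroids and hydroxysteroids such as estrone and estradiol, lay between 8.94 and 9.39 on all 8 arrays. It read 9.39 and 9.32 in knockout males, against 9.25 and 9.24 in wild-type males, and 9.07 and 9.18 in knockout females, against 8.94 and 9.06 in wild-type females. The differences were 0.11 (95% interval -0.14 to 0.36) in males and 0.13 (-0.12 to 0.38) in females.

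**Figure D2:**
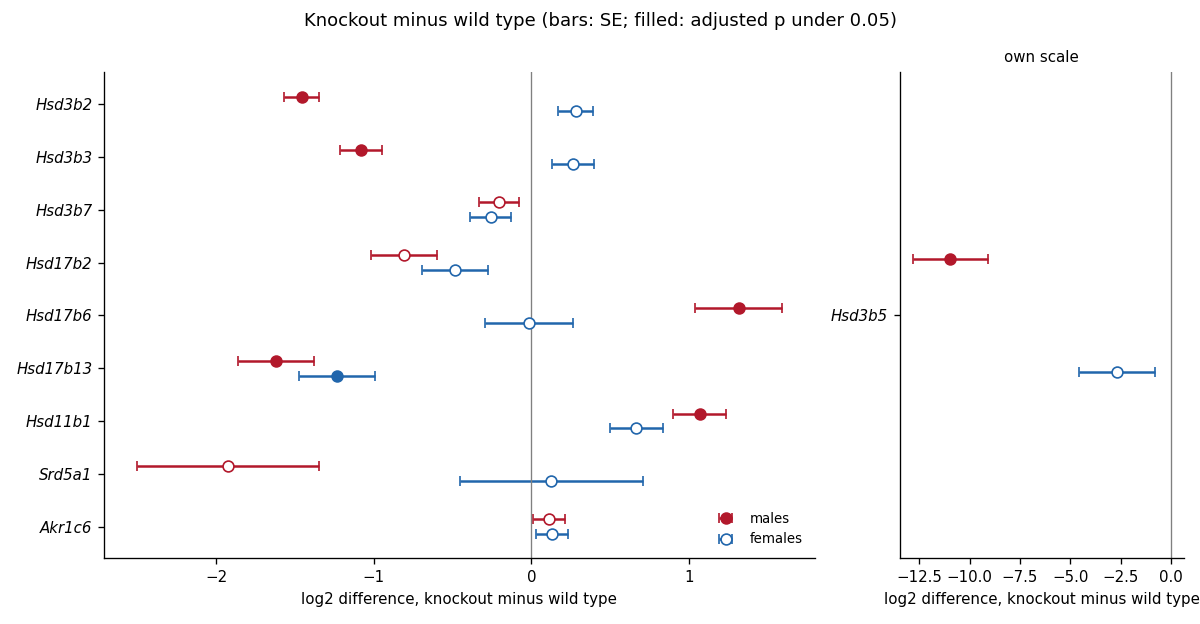
Knockout minus wild type for each enzyme (x axis, log2 difference, with Hsd3b5, not well above background on 5 of 8 arrays, on a scale of its own), males in red above females in blue. Bars are SE of the fit with 2 arrays a group, and filled points passed the adjusted p threshold of 0.05. In males 6 points are filled, and in females 1, Hsd17b13.

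The difference between males and females was then set side by side in each genotype. In knockout livers 0 of the 10 enzymes differed between the sexes by limma at an adjusted p under 0.05, when 0.0828% of all genes did, and 0 did so at an unadjusted p under 0.05. In wild-type livers 2 of 10 were higher in males and 0 lower, when 0.964% of all genes differed, 0.603% being higher and 0.362% lower. These were Hsd3b2 and Hsd3b3. Arrays of males and females did not overlap for 5 of 10 enzymes in knockout livers (41.4% of all genes) and for 8 of 10 in wild-type livers (47.8%).

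For Hsd3b2 the male minus female difference was -0.14 (95% interval -0.41 to 0.13) in knockout livers, against 1.60 ± 0.11 in wild-type livers (adjusted p = 0.00397). The change between those differences was -1.74 ± 0.16 (adjusted p = 0.0276). It was the 1 enzyme of 10 for which this test passed, when 0.192% of all genes did. The interaction call was lost without any 1 of 4 arrays, replicate 2 of each male group and either knockout female. Without replicate 2 of the knockout males the interaction was -1.65. In the other cases the second probe became the brighter one and stood for the gene, with -1.33 without the wild-type male array and -1.17 and -1.22 without the knockout female arrays. Those losses thus cannot be laid to the array alone. On the second probe the wild-type sex difference was 1.41 (adjusted p = 0.0121) and the interaction -1.20 (adjusted p = 0.157).

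For Hsd3b3 the male minus female difference was -0.22 (95% interval -0.54 to 0.11) in knockout livers, against 1.13 ± 0.13 in wild-type livers (adjusted p = 0.0270). The change between them, -1.35 ± 0.19, did not pass (adjusted p = 0.103). The wild-type call was lost without any 1 of 5 arrays, all 4 male arrays and replicate 1 of the wild-type females (adjusted p 0.0584 to 0.0832).

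Hsd3b5, Srd5a1, Hsd17b2 and Hsd17b6 had wild-type sex differences that did not pass over all arrays. The adjusted p was 0.0816 for Hsd3b5, for which 1 of the 2 female arrays was not well above background and no size is given. The differences were 2.22 ± 0.58 for Srd5a1 (adjusted p = 0.142), 0.62 ± 0.21 for Hsd17b2 (0.211) and -1.54 ± 0.28 for Hsd17b6 (0.0717). Hsd3b5 also passed without replicate 1 of the wild-type females (adjusted p = 0.018). Replicate 2 of the wild-type females stood nearer to the males than replicate 1 did for the first 3 of these genes. Leaving it out thus had to widen those differences, and it left 1 wild-type female array. Passing then is no separate support for a sex difference. Without it the differences were 3.15 for Srd5a1 and 0.93 for Hsd17b2, both higher in males, and no female array was left above background for Hsd3b5. Then 5 of 10 enzymes passed in place of 2, while 1057 genes in all passed in place of 256. The interaction passed for 3 enzymes in place of 1, with -2.98 for Srd5a1 (adjusted p = 0.0397) and Hsd3b5 (0.00666) beside Hsd3b2, while 531 genes in all passed in place of 51. With normexp background correction on all 8 arrays the wild-type sex difference passed for Hsd3b5 (adjusted p = 0.0004) and for Hsd17b6 (-1.44, adjusted p = 0.0265). The Hsd3b5 probe had passed the filter on dim probes through the wild-type males alone, the high group of this contrast. Its pass with normexp is thus no separate support either. Without that filter and without normexp the limma adjusted p for Hsd3b5 was 0.19. In the knockout livers the sex differences were 0.17 (95% interval -1.25 to 1.59) for Srd5a1, 0.30 (-0.21 to 0.81) for Hsd17b2 and -0.21 (-0.88 to 0.46) for Hsd17b6. Hsd3b5 was not well above background in either sex there. Hsd11b1 and Akr1c6 also had wild-type sex differences that did not pass by limma. These were -0.48 (95% interval -0.90 to -0.07, adjusted p = 0.229) and 0.25 (0.003 to 0.49, adjusted p = 0.273). In knockout livers they were -0.08 (-0.50 to 0.33) for Hsd11b1 and 0.23 (-0.02 to 0.47) for Akr1c6.

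**Figure D3:**
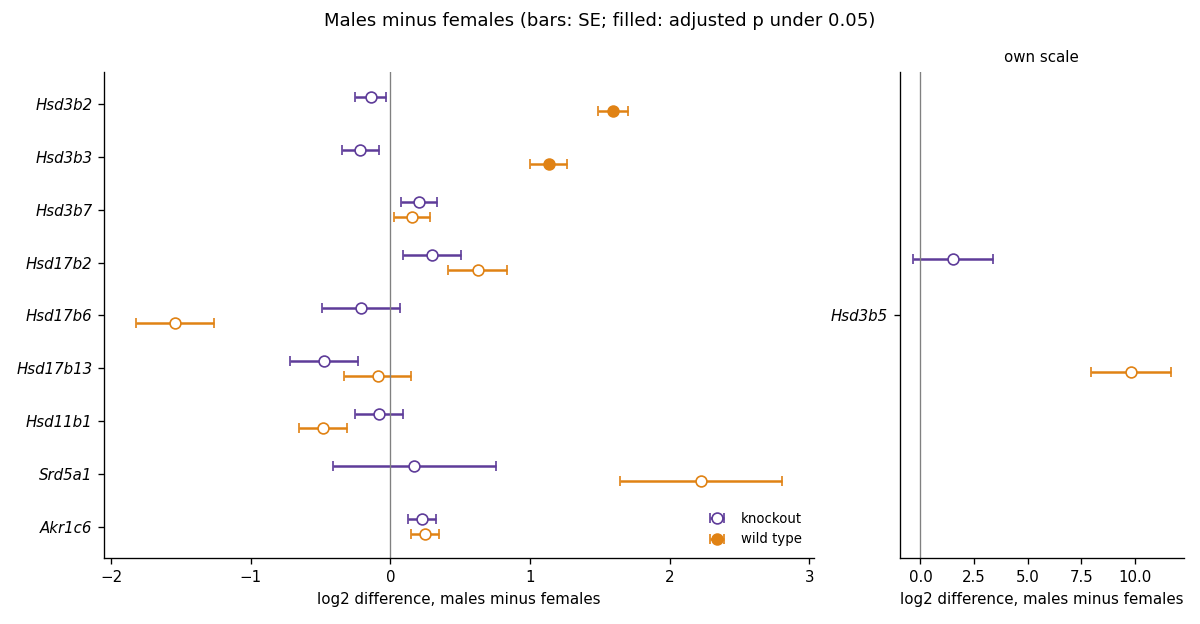
Males minus females for each enzyme (x axis, log2 difference, with Hsd3b5, not well above background on 5 of 8 arrays, on a scale of its own), knockout livers in purple above wild-type livers in orange. Bars are SE with 2 arrays a group, and filled points passed the adjusted p threshold of 0.05. Hsd3b2 and Hsd3b3 are filled in wild-type livers, and no point is filled in knockout livers.

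Genes beside these enzymes on the chromosomes were compared next, within 2 genes on each side. Of 25 tested neighbours that are not among the 10 enzymes, 2 rose and 4 fell in knockout males, when 5.77% of all genes rose and 4.93% fell, and 2 rose and 1 fell in knockout females (3.48% and 2.45%). On chromosome 3 the order is Hsd3b5, Hsd3b2, Hsd3b3, Hsd3b6 and Hsd3b1. Hsd3b6, a paralog of the same family, read -0.46 and -0.62 in knockout males, against 0.58 and 0.42 in wild-type males, a fall of 1.04 ± 0.14 (adjusted p = 0.0095). Hsd3b1, known from gonads and adrenal, went the other way. It read -1.54 and -0.74 in knockout males, against -2.51 and -2.43 in wild-type males, a rise of 1.33 ± 0.26 (adjusted p = 0.0290). The probes of the 4 genes from Hsd3b5 to Hsd3b6 thus fell in males and that of the next one rose. How far the probes of these paralogs read each other's transcripts was not tested.

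On chromosome 5, Hsd17b11 lies next to Hsd17b13. It encodes a related lipid droplet enzyme and read 4.05 and 3.94 in knockout males, against 5.50 and 5.27 in wild-type males. The levels in females were 4.13 and 4.19 in knockout livers, against 5.46 and 5.22 in wild-type livers. It fell by 1.39 ± 0.13 in males (adjusted p = 0.00311) and by 1.18 ± 0.13 in females (adjusted p = 0.00853), and both knockout groups lay below both wild-type groups. Klhl8, on the other side, fell by 0.76 in males (adjusted p = 0.0413) and differed by -0.24 in females (adjusted p = 0.412).

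**Figure D4:**
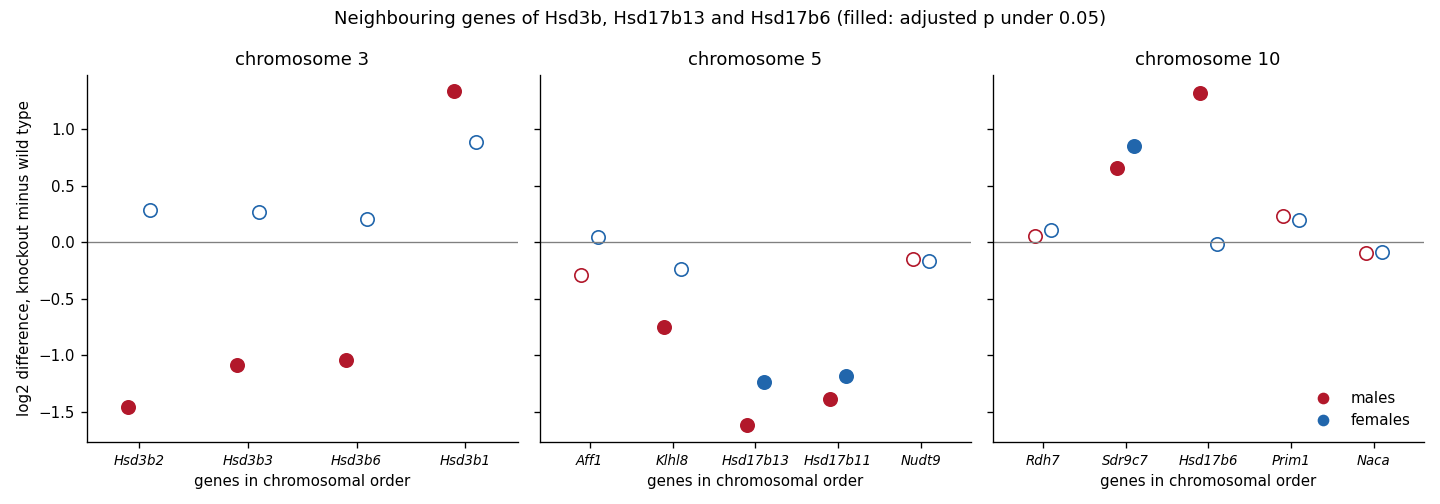
Knockout minus wild type (y axis, log2 difference) for genes in their order on chromosomes 3, 5 and 10, males in red and females in blue, filled where the adjusted p was under 0.05. Hsd3b2, Hsd3b3 and Hsd3b6 are lower and Hsd3b1 is higher in knockout males, and Hsd17b13 and Hsd17b11 are lower in both sexes. Hsd3b5, next to Hsd3b2, is outside this scale and not drawn.

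Hsd17b6 belongs to a cluster of retinol and sterol dehydrogenases on chromosome 10. Of 8 tested genes listed with Rdh16, Bdh1 on chromosome 16 among them, 5 rose and 0 fell in knockout males, with a median difference of 0.799, when 5.77% of all genes rose and 4.93% fell. In females 2 rose and 0 fell, with a median of 0.357, when 3.48% of all genes rose and 2.45% fell. Rdh16f2 read 7.58 and 7.53 in knockout males, against 5.88 and 5.95 in wild-type males, a rise of 1.65 ± 0.13 (adjusted p = 0.00146). Rdh9 rose by 2.02 ± 0.23 in males (adjusted p = 0.00536), and Rdh16, whose product oxidises retinol and androstanediol, by 0.94 ± 0.18 (adjusted p = 0.0268). Rdh1, a retinol dehydrogenase, rose by 1.77 in males (adjusted p = 0.00169) and by 1.74 in females (adjusted p = 0.00281). Sdr9c7, the gene next to Hsd17b6, rose by 0.66 in males (adjusted p = 0.0494) and by 0.85 in females (adjusted p = 0.0350). Rdh7, the gene beyond Sdr9c7, differed by 0.06 in males and 0.11 in females and did not pass (adjusted p = 0.760 and 0.549). How far the probes of these related genes read each other's transcripts was not tested.

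Among 10 other tested Hsd3b and Hsd17b genes, 2 rose and 3 fell in males (5.77% and 4.93% of all genes) and 2 rose and 1 fell in females (3.48% and 2.45%). Besides Hsd3b6, Hsd3b1 and Hsd17b11 these were Hsd17b12, which fell in males, Hsd17b14, which rose in both sexes, and Sdr42e1, which rose in females. Hsd17b14 read -1.25 and -0.78 in knockout males, against -2.26 and -2.01 in wild-type males, a rise of 1.12 ± 0.18 (adjusted p = 0.0170). In females it rose by 1.33 ± 0.18 (adjusted p = 0.0157). Of 13 other reductases, 1 rose and 1 fell in males by limma at the adjusted threshold, near the share over all genes, and 0 passed in females. At an unadjusted p under 0.05 there were 9 in males and 5 in females. Akr1b7, an aldo-keto reductase known from adrenal, read 1.04 and 0.93 in knockout males, against -3.30 and -2.74 in wild-type males, 16.1-fold higher (adjusted p = 0.00553). In females it read 2.11 and 2.04 in knockout livers, against 1.24 and -0.22 in wild-type livers, a difference that did not pass (adjusted p = 0.108). Akr1c12, the neighbour of Akr1c6, fell by 0.53 in males (adjusted p = 0.0477).

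Of 9 tested steroidogenic P450 enzymes and partners, 0 changed in males by limma at an adjusted p under 0.05, when 10.7% of all genes did, and 6 had an unadjusted p under 0.05. In females 1 of the 9 changed (5.93% of all genes), namely the cholesterol carrier Star, which fell by 1.26 (adjusted p = 0.0303). Cyp11a1, Cyp11b1 and Cyp11b2, which define steroid-making adrenal cells, were not among the genes tested. They lacked either a named probe or one past the filter on dim probes, so nothing is said of their levels. The other 6 of 9 adrenal cortex markers were well above background on all 8 arrays, with a summed linear level of 91.7 to 92.6 in knockout males, against 121 to 142 in wild-type males, and 86.6 to 87.6 in knockout females, against 91.3 to 101 in wild-type females. Among these 6, Nr5a1 rose in both sexes and Star fell in females, and what part adrenal RNA has in the levels was not tested.

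Of 9 tested steroid carriers and receptors, 3 rose and 0 fell in males (5.77% and 4.93% of all genes) and 1 rose in females (3.48%). The median difference over the 9 was -0.172 in males and -0.0167 in females. Serpina6, the plasma globulin that carries corticosteroids, read 10.33 and 10.29 in knockout males, against 6.05 and 5.95 in wild-type males, and 10.25 and 10.15 in knockout females, against 7.22 and 6.85 in wild-type females. The rise was 19.8-fold in males (adjusted p = 0.000185) and 8.97-fold in females (adjusted p = 0.000439). Esr1, the estrogen receptor, rose by 2.37 ± 0.22 in males (adjusted p = 0.00292) and differed by 1.02 ± 0.22 in females (adjusted p = 0.0564). Pgr, the progesterone receptor, was not well above background on either wild-type male array and rose at least 2.51-fold in knockout males (adjusted p = 0.0233). Its probe passed the filter on dim probes through the knockout male arrays alone.

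Hsd11b1 and Serpina6 both act on glucocorticoid supply, and 16 genes known to respond to glucocorticoids were counted beside them. In males 4 rose and 2 fell, with a median of -0.367, when 5.77% of all genes rose and 4.93% fell. In females 0 rose and 2 fell, with a median of -0.411, when 3.48% rose and 2.45% fell. The metallothionein gene Mt1 rose by 2.62 ± 0.37 and Lcn2, an acute phase protein, by 1.79 ± 0.25 in males (adjusted p = 0.0113 and 0.0111), and Sgk1 and Mt2 also rose. Dusp1, a phosphatase, fell by 1.81 in males and by 1.13 in females (adjusted p = 0.0027 and 0.0190). Zbtb16, a transcription factor related to Bcl6, fell by 2.05 in males and by 2.59 in females (adjusted p = 0.0168 and 0.0125).

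Of 12 tested steroid hydroxylases, cytochromes P450 that add hydroxyl groups to steroids, sterols or bile acids, 2 rose and 4 fell in males (5.77% and 4.93% of all genes) and 1 rose and 3 fell in females (3.48% and 2.45%). Cyp7b1, which hydroxylates oxysterols and dehydroepiandrosterone, read 4.16 and 4.14 in knockout males, against 6.14 and 6.30 in wild-type males, a fall of 2.07 ± 0.14 (adjusted p = 0.000898). Female livers had 3.35 and 3.49 in knockout livers, against 2.36 and 2.69 in wild-type livers, a rise of 0.90 ± 0.14 (adjusted p = 0.0228). Cyp2d9, a testosterone hydroxylase of male liver, fell by 3.75 in males and by 1.08 in females (adjusted p = 0.000217 and 0.0125). Cyp2b9, a P450 of female mouse liver, rose by 5.59 ± 0.47 in males (adjusted p = 0.00208) and differed by -0.84 in females (adjusted p = 0.326). Cyp39a1, a further oxysterol hydroxylase, fell by 1.40 in males and by 2.70 in females (adjusted p = 0.0136 and 0.00222).

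**Figure D5:**
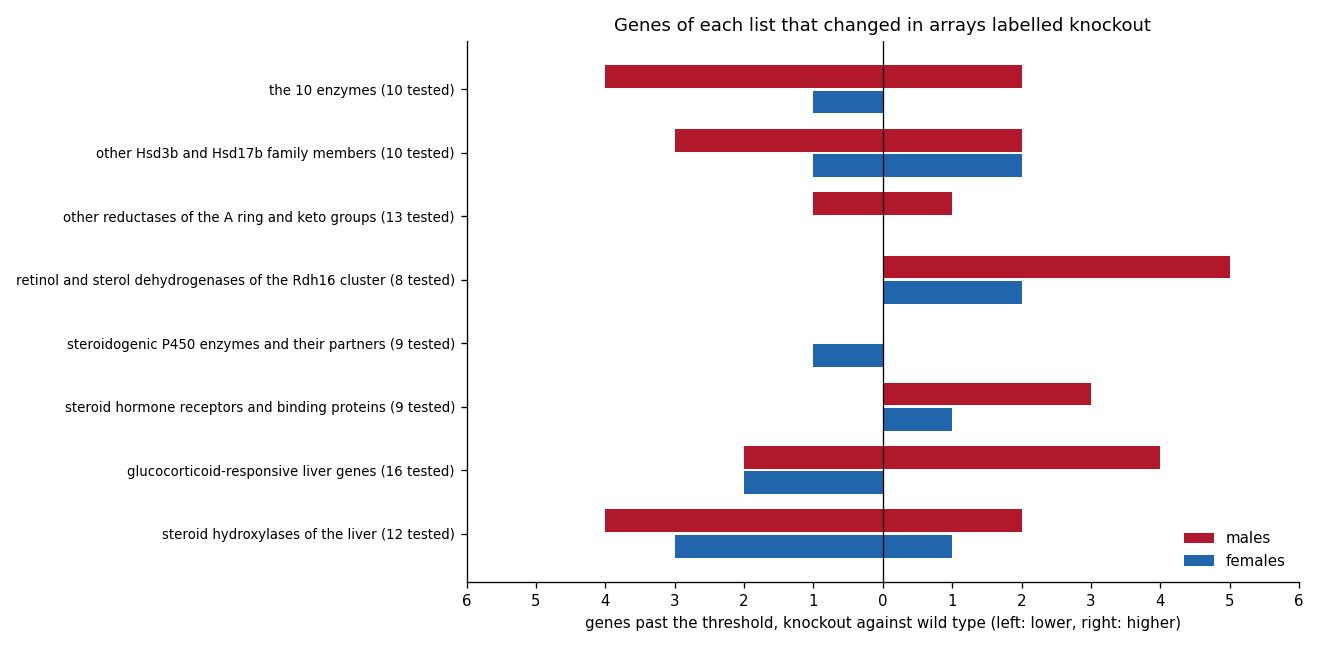
Number of genes in each list that passed the adjusted p threshold of 0.05 in knockout against wild-type livers (x axis, lower to the left and higher to the right of 0), males in red above females in blue. The number tested stands beside each list. Among the dehydrogenases listed with Rdh16 5 of 8 rose in males and none fell.

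For each enzyme that changed, the genes whose 8 array values followed it most closely were named, as a description over 4 groups of 2 with no test. Hsd3b2 was followed by Tmeff2 (r = 0.988), Gm4956 (0.987) and Apip (0.984), and Hsd3b3 by its neighbour Hsd3b6 (0.988), Mettl17 (0.985) and Ttbk1 (0.983). Hsd3b5 was followed by Serpina12 (0.993), Vmn1r214 (0.988) and Dennd3 (0.988), though 5 of its 8 values were not well above background. Hsd17b13 went with Nop9 (0.993), Smim22 (0.983) and Retsat (0.982), a retinol saturase. Hsd11b1 went with Atoh8 (0.988), Klhl13 (0.987) and 1700031A10Rik (0.986), and Hsd17b6 with Tnfrsf11b (0.983), Arhgef17 (0.981) and Arap3 (0.981). All these values share the same 8 arrays and the same differences between groups.

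Markers of other cells were counted in the same comparisons, when 5.77% of all genes rose and 4.93% fell in knockout males (3.48% and 2.45% in knockout females). Of 7 B and plasma cell markers 4 rose in males and 2 in females. Their summed linear level, in units of the 75th percentile, was 28.8 to 32.0 in knockout males, against 10.6 to 11.6 in wild-type males, and 31.6 to 32.1 in knockout females, against 12.6 to 13.1 in wild-type females. Of 8 endothelial markers 3 rose in males and 1 in females, and the sum in males was 107 to 114 in knockout livers, against 72.4 to 75.5 in wild-type livers. Of 7 stellate cell markers 2 rose in males, and 1, Lrat, fell in females.

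Of 4 tested pancreatic acinar markers 1, Cela1, fell in males and none passed in females. The acinar sum was 24.4 to 27.8 in knockout males, against 43.6 to 62.5 in wild-type males, and 24.3 to 25.3 in knockout females, against 25.9 to 28.3 in wild-type females, while the median log2 difference over the 4 in males was -0.00911. No tested marker of macrophages, cholangiocytes, T and NK cells, adipocytes or kidney tubule passed in either sex by limma at an adjusted p under 0.05, and at an unadjusted p under 0.05 there were 0 of 27 in males and 1 of 27 in females. The hepatocyte marker Asgr1 rose and Ttr fell in both sexes, and the 11 hepatocyte markers summed to 4340 to 4430 in knockout males, against 4270 to 4370 in wild-type males. What part these cells have in the levels of the enzymes was not tested.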

How the data were processed

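RNA of whole mouse liver was measured on 8 one-colour arrays, 4 groups of 2. Per the file headers, the deposited intensity of a spot is the background-subtracted signal given by Agilent Feature Extraction 11.5.1.1, where the submitters' processing notes have 9.1.3.1. The deposited value table holds log2 values equal to the log2 processed signal minus 1 constant per array, within 0.01 for nearly all probes, not centred per gene. Spots of 1 probe were averaged (56605 probes), and 32994 probes were named through RefSeq accessions. Here log2 signals had each array's 75th percentile subtracted. Probes were kept (33586) if some group had both its arrays well above background, and the brightest probe stood for a gene.

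The model of 4 group means was fitted with limma 3.58.1 (R 4.3.3) to 26556 genes and unnamed transcripts (lmFit, eBayes, 4 residual and 2.07 prior degrees of freedom), with Benjamini-Hochberg adjustment at 0.05 over all of them in each of 5 contrasts. It was checked on simulated data. A fold against a group below background is a lower bound, from the higher of the probe's own signal and the lowest signal well above background on each array. P-values measure the spread between these samples, which may be technical. Precision is limited by the number of arrays. The same-numbered replicates had correlations of deviations of -0.002 to 0.102, so the numbers were not taken as pairs. The arrays' grid is annotated on mm9, so the gene list of GRCm38.p6 served for names and order only, and promoter coordinates are those of its own build.

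The members and lists were chosen with earlier results of these data known. Named are the 10 enzymes, their neighbours, up to 4 genes of each of 7 lists with the smallest adjusted p past the threshold in a knockout contrast, and the 3 genes most correlated with each changed enzyme. Cyp11a1, Cyp11b1, Cyp11b2, and some of the further changed members of the lists, are named beyond that rule, with the results known. The alternatives were normexp correction with an offset of 50 (on median intensities, since the files hold no mean intensity), quantile and median scaling, the deposited table, no filter and a stricter one, the mean of kept probes, only the groups compared, the replicate block, each array left out, and each second probe, the last chosen after seeing the data.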

Additional observations from a re-analysis of the deposited data

Results flagged for a closer look

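Among the genes named, the male and female differences between knockout and wild type were tested against each other by limma's interaction. At an adjusted p under 0.05, 4 passed, when 0.192% of all genes did. Cyp2d9, Cyp7b1 and Cyp2b9 were named for a small adjusted p in a knockout contrast of these same data. The count of 4 is thus not to be set against that share. For Hsd3b2 the male difference minus the female one was -1.74. On the second Hsd3b2 probe it was -1.20 and did not pass (limma adjusted p = 0.157). For Cyp2d9, the testosterone hydroxylase, it was -2.67, with a fall in both sexes that was the deeper one in males. For Cyp7b1, the oxysterol hydroxylase, it was -2.97, with a fall in males and a rise in females. For Cyp2b9, the P450 of female liver, it was 6.43, with a rise in males.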

How the results depend on the processing

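The fall of Hsd3b2 in males kept its call under all 18 alternatives (highest adjusted p = 0.0197). Over the enzymes' own contrasts, calls were kept in 124 alternative values and lost in 49, all 49 with the same direction. Values that had not passed stayed so with their sign in 625, passed in 24 and changed sign in 23. The cause of these changes was not tested, except that settings with fewer arrays leave fewer degrees of freedom, and that the brighter of the 2 Hsd3b2 probes, which stands for the gene, is chosen anew in each setting.

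The number of genes and unnamed transcripts tested was 26556 in the main fit and with normexp, the replicate block or only the groups compared. Without the filter on dim probes it was 45616, and with probes well above background on all 8 arrays 22948. Counts below are out of these unlike totals. Genes past the threshold in knockout against wild type numbered 1225 in males and 522 in females without the filter on dim probes. In females they numbered 2660 with normexp and 368 with only the groups compared. Between males and females of the knockout they numbered 10 with normexp, 11 with only the groups compared and 1 with probes well above background on all 8 arrays. In wild type they numbered 99 without the filter, 612 with normexp and 43 with only the groups compared. The interaction gave 16 without the filter and 25 with the replicate block. Of the 10 enzymes, the male knockout contrast called 3 without the filter. Hsd3b5 (limma adjusted p = 0.0538), Hsd11b1 (0.0516) and Hsd17b6 (0.0944) lost their male calls there. With only the groups compared, the male contrast lost Hsd17b6 (0.0943) and gained Hsd17b2 (0.0269) and Srd5a1 (0.0179). The female knockout contrast called 0 without the filter, 2 with normexp and 0 with only the groups compared. Hsd17b13 lost its female call without the filter (0.11) and with only the groups compared (0.132). The wild-type sex contrast called 1 without the filter, 4 with normexp and 0 with only the groups compared. The interaction called 0 without the filter, 2 with normexp, which were Hsd3b3 (adjusted p = 0.0155) and Hsd3b5 (0.00694) and no longer Hsd3b2 (0.0575), and 0 with the replicate block. The replicate block lost the calls of Hsd3b2 in the interaction (adjusted p = 0.0572) and of Hsd3b3 between wild-type sexes (0.0511), and gained that of Hsd17b6 between wild-type sexes (-1.54, 0.0494).

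With each array left out in turn, genes numbered 1077 to 2911 for knockout in males, 562 to 1692 for knockout in females, 11 to 217 between knockout sexes, 86 to 1057 between wild-type sexes and 80 to 531 for the interaction. Enzymes numbered 1 to 7, 0 to 3, 0 to 0, 1 to 5 and 0 to 3 in the same contrasts. The 1 enzyme left in males without replicate 2 of the knockout was Hsd3b2. A lone array is then assumed to vary like the other groups. The number tested also changed with the array left out, from 26813 to 27794.

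All changes of sign were in values that had not passed. With other settings they were 0.104 for Akr1c6 in the interaction and 0.001 for Hsd17b6 in knockout females (both quantile scaling), 0.074 for the second Hsd17b13 probe in the interaction, and for Hsd3b2 between knockout sexes 0.037 with the mean of probes, 0.137 with normexp and 0.216 on the second probe. With 1 array left out, the knockout difference in females ranged from -5.844 to 0.497 for Hsd3b5, from -0.166 to 0.135 for Hsd17b6 and from -0.807 to 1.055 for Srd5a1. The sex difference in the knockout ranged from -0.232 to 0.242 for Hsd3b2, from -0.485 to 0.063 for Hsd17b6 and from -0.124 to 0.469 for Srd5a1. In wild type it ranged from -0.001 to 0.309 for Hsd3b7 and from -0.309 to 0.126 for Hsd17b13, and the interaction from -0.104 to 0.206 for Hsd3b7 and from -0.078 to 0.037 for Akr1c6. Levels below background give only a bound.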
